A study of Homo sapiens with 11 samples.

Results

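With both constructs against IBSP, PC3 cells had lower levels of interferon-stimulated genes than with the control construct, and IBSP itself lay at the background of the arrays on all 3. The results concern the arrays titled shIBSP(1) 48 h and shIBSP(2) 48 h, each set against the array titled shNC 48 h, and the direct difference of shIBSP(2) minus shIBSP(1), which uses no control array. These 3 arrays were chosen by their titles from the 11 human Clariom D arrays of the series. The other 8 hold PC3 cells transfected with siHOXB13, siHOXA11, siHOXA11-AS or the control siRNA siNC for 24 h or 48 h. PC3 is an established human prostate cancer line derived from a bone metastasis. All 11 samples were grown in RPMI medium with serum and share the same transfection protocol, so the shNC cells were transfected as well and no untransfected sample stands beside them. There is 1 array per condition, and nothing in the sources says that shIBSP(1) and shIBSP(2) came from separate experiments.

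IBSP encodes bone sialoprotein, a secreted, heavily modified glycoprotein of mineralized matrix that belongs to the SIBLING family with SPP1 (osteopontin), DMP1, MEPE and DSPP. It binds integrins through an RGD motif and nucleates hydroxyapatite, and it is known in prostate cancer for its production by cells that settle in bone. Small interfering RNAs guide Argonaute proteins to matching transcripts, and a short hairpin RNA is an expressed precursor of the same kind of duplex. Double-stranded RNA in the cytoplasm or endosome can also be sensed by RIG-I-like receptors, protein kinase R and TLR3. These sensors induce interferons, which act through JAK kinases and STAT transcription factors on interferon-stimulated genes.

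The titles of the 3 arrays say sh, whereas the treatment text of their labels speaks of siRNAs, so whether the cells held short hairpins or siRNAs is not settled. The study lists 2 siRNA targets in IBSP that carry the same numbers as the arrays, and they are shown because they are the designed sequences that could tell the constructs apart. Whether the arrays used these targets is not stated. Both are 23 nt long with 5 G or C bases (21.7%), and the longest run of bases that they share is 3.
siIBSP (1): aagaatttcattgacattaatga
siIBSP (2): acgagttttatcacaaataaaaa

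IBSP, on chromosome 4 (chr4:87799554-87812435, GRCh38.p14), had a log2 intensity of 3.84 with shIBSP(1) and 3.17 with shIBSP(2), against 3.50 with shNC. The 23 background probe sets of the same arrays had medians of 3.32, 3.30 and 3.31 in that order, so IBSP was near background on each array and was higher than shNC with one construct and lower with the other. On the 8 siRNA arrays IBSP lay between 3.38 and 4.40 with a median of 3.98. The knockdown of IBSP therefore cannot be checked from these arrays. Of the family, SPP1 had 4.02 and 3.57 on the shIBSP arrays against 3.72 with shNC, DMP1 4.29 and 4.54 against 4.08, and MEPE 4.70 and 4.93 against 4.45. DSPP, a dentin matrix protein, was the brightest at 6.43 and 6.95 against 6.24.

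Levels are given as log2 of the deposited intensity, so that a difference of 1 is 2-fold. They refer to the 16808 genes with the highest mean levels among 33616 with a symbol, called kept or measured below. Values of shIBSP(1) come before those of shIBSP(2). Array medians over these genes were 7.54 and 7.38 with the shIBSP constructs and 7.58 with shNC, and the median gene differed from shNC by -0.03 with shIBSP(1) and by -0.14 with shIBSP(2). The root mean square difference over the genes was 0.39 for shIBSP(1) and 0.52 for shIBSP(2) against shNC, and 0.42 for shIBSP(2) against shIBSP(1). The 8 markers of PC3 cells lay between 9.75 and 17.1 on the 3 arrays, the prostate genes that PC3 lacks at 6.04 or less, and 8 of 13 markers of other cell types under 6 on all 3. Of the rest, the osteoblast marker RUNX2 had 11.54 and 11.66 against 11.92, above its siRNA range of 9.70 to 10.95. The fibroblast marker COL1A1 had 8.62 and 8.69 against 8.27, and PTPRC, LUM and VWF were above 6 on at least 1 array. Intensities stop at 999965 (19.93 on the log2 scale), so genes near that level, MX1 among them, are compressed.

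Against shNC, 22 genes (0.131% of those measured) were at least 2-fold higher with both shIBSP arrays and 173 (1.03%) were at least 2-fold lower with both. No gene (0%) was 2-fold different in opposite directions. With shIBSP(1), 85 genes (0.506%) were at least 2-fold higher than with shNC and 269 (1.6%) at least 2-fold lower. With shIBSP(2) there were 166 (0.988%) higher and 818 (4.87%) lower. Both sets of differences use the same shNC array, so each deviation of that array enters both of them alike. Of the 173 genes lower with both, 130 (75.1%) were lower still with shIBSP(2). Most genes shared this order, since only 37.2% of all genes were higher with shIBSP(2) than with shIBSP(1). The split depends on how the arrays are scaled: 11.3% of the genes that passed 2-fold with both constructs were higher as deposited, 25.4% after quantile normalization (29 higher, 85 lower) and 28.4% after centring each array on its median (42 higher, 106 lower). All 85 and all 106 of those lower genes were among the 173. Many called genes came from probe sets that carry a symbol but no Entrez ID in the platform table, 11 of the 22 and 90 of the 173. With such probe sets left out, 7 of 12290 genes were higher and 73 lower with both constructs, an alternative added after the data were seen.

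**Figure D1:**
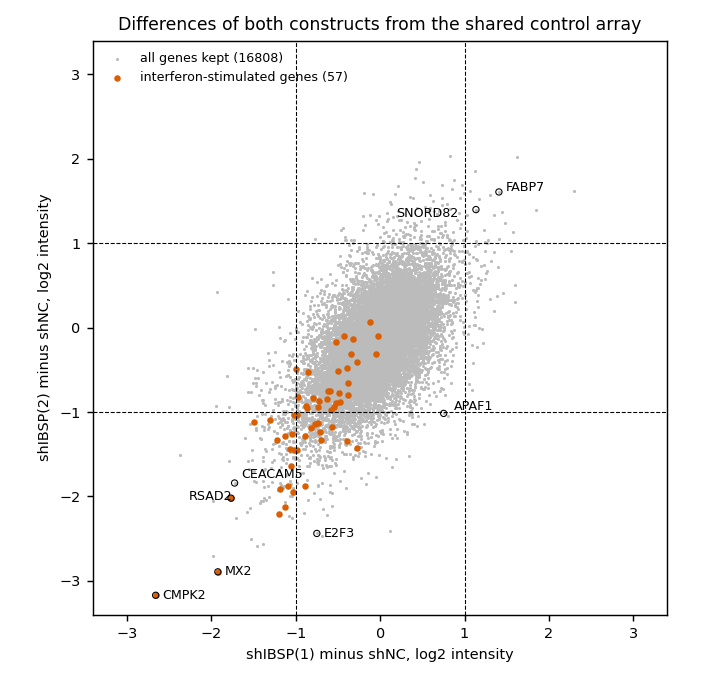
Log2 difference from shNC of the genes kept, with shIBSP(1) on the horizontal axis and shIBSP(2) on the vertical axis, and 1 point per gene. Genes 2-fold or more below shNC with both constructs (173) far outnumber those above with both (22), no gene sits past 2-fold in opposite corners, and 17 of the 57 interferon-stimulated genes lie past 2-fold in the lower left, CMPK2 farthest of them.

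No gene passed in limma, and no condition had replicate arrays. In limma on all 11 arrays, with the 2 shIBSP arrays as 1 group and 4 residual degrees of freedom, 0 genes were higher (0%) and 0 lower (0%) than shNC at a Benjamini-Hochberg adjusted p under 0.05, with a smallest adjusted p of 1. At an unadjusted p under 0.05 there were 78 higher and 349 lower. The spread behind this test comes from the disagreement between the shIBSP arrays and between the 24 h and 48 h arrays of each siRNA, since shNC has a single array. It may be technical. The differences below are therefore values of single arrays, and "higher" and "lower" describe these arrays.

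Of the 44 gene lists compared, the interferon-stimulated genes had the lowest medians against shNC with both constructs. Of 62 listed genes 57 were measured, and 56 of these were below shNC with both constructs, where 42.6% of all genes were. Their median difference was -0.78 with shIBSP(1) and -1.04 with shIBSP(2), which is 1.71-fold and 2.05-fold lower, against -0.03 and -0.14 over all genes. Single members ranged from -2.66 to -0.03 with shIBSP(1) and from -3.17 to 0.06 with shIBSP(2). At least 2-fold lower were 17 with shIBSP(1), 29 with shIBSP(2) and 17 with both, against 1.6%, 4.87% and 1.03% of all genes, and none was 2-fold higher. The member not below shNC with both was UBA7, the E1 enzyme of ISG15 conjugation, with 5.67 and 5.85 against 5.78, read from a dim probe set without an Entrez ID. The list median stayed below 0 after quantile normalization (-0.66 and -0.80) and after median centring (-0.74 and -0.84).

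CMPK2, MX2 and RSAD2 had the largest differences of this list. CMPK2, a mitochondrial nucleotide kinase encoded next to RSAD2, had 10.90 with shIBSP(1) and 10.39 with shIBSP(2), against 13.56 with shNC. The differences of -2.66 and -3.17 gave a limma estimate of -2.92 (SE 0.50, unadjusted p = 0.000175, adjusted p = 1). RSAD2, which encodes viperin, an enzyme that makes a chain-terminating nucleotide, had 12.73 and 12.47 against 14.49. MX2, a dynamin-like GTPase, had 10.62 and 9.65 against 12.54, whereas its paralog MX1 was near the top of the scale at 19.03 and 19.02 against 19.54. Both constructs were thus below shNC for each of these genes, with MX2 nearly 1 log2 unit lower in shIBSP(2) than in shIBSP(1).

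OAS2, which makes the 2′-5′ oligoadenylates that activate RNase L, had 14.52 and 13.51 against 15.72. GBP1, a guanylate-binding GTPase, had 7.44 and 6.44 against 8.57. Both genes stood about 1 log2 unit lower with shIBSP(2) than with shIBSP(1). Among the IFIT proteins, which bind foreign RNA ends, IFIT3 had 14.67 and 13.94 against 15.86, IFIT1 15.72 and 15.52 against 16.77, and IFIT5 10.25 and 9.33 against 11.28. IFIT2 lay just outside the 2-fold limit with shIBSP(1), at 12.07 and 11.61 against 13.06 (-0.99 and -1.45). CXCL10, a chemokine for T cells, had 6.74 and 6.59 against 7.87, and ISG15, the ubiquitin-like modifier, 14.58 and 14.53 against 15.46, a difference under 2-fold on both arrays.

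A few members differed in the other order. IFIH1, the cytoplasmic sensor MDA5, had 12.40 and 12.78 against 13.89, and IFI44L 13.80 and 14.01 against 15.10. Both were lower with shIBSP(1) than with shIBSP(2), whereas 47 of the 57 were lower with shIBSP(2). Of all genes, 37.2% were higher with shIBSP(2) than with shIBSP(1). The median of shIBSP(2) minus shIBSP(1) over the 57 genes was -0.27, and -0.10 after median centring. Of the transcription factors, IRF7, which amplifies type I interferon transcription, had 7.71 and 6.56 against 7.99, and IRF9, the DNA-binding part of the ISGF3 complex, had 11.71 and 10.76 against 12.11. Both factors differed from shNC by less than 0.5 with shIBSP(1) and by more than 1 with shIBSP(2).

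**Figure D2:**
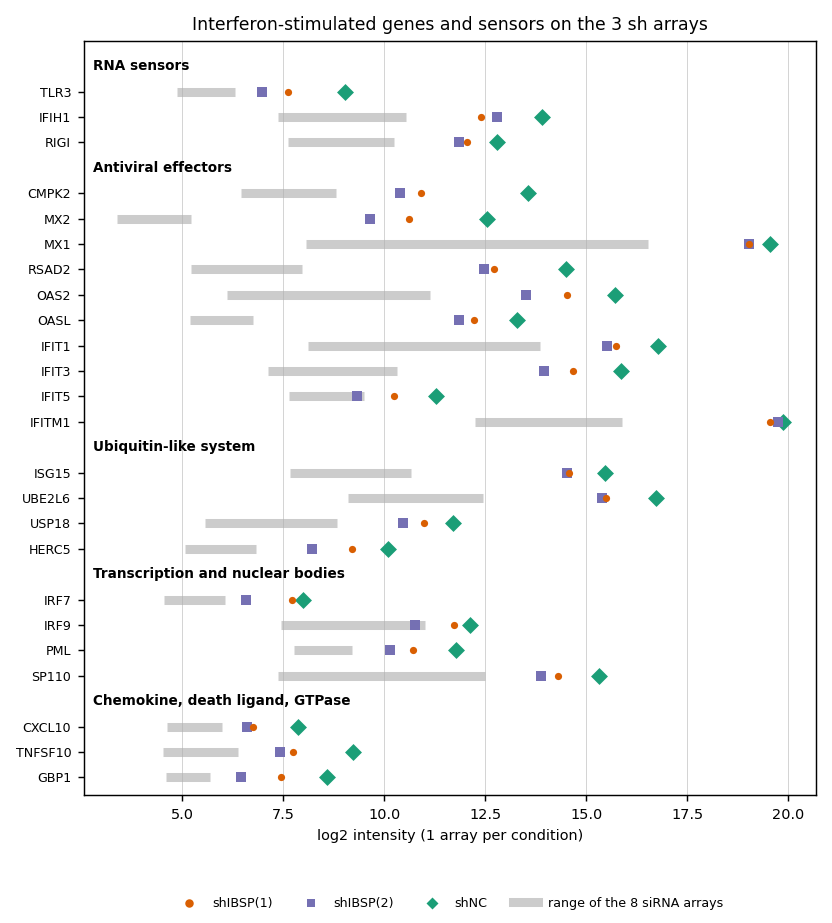
Log2 intensity of interferon-related genes, with 1 symbol per array for shIBSP(1), shIBSP(2) and shNC and the range of the 8 siRNA arrays as a line. CMPK2 shows the widest gap, with 10.90 and 10.39 on the shIBSP arrays against 13.56 with shNC, and most sh arrays lie above the siRNA range.

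All 3 sh arrays had high interferon-stimulated genes beside the siRNA arrays. The median level of the 57 genes was 11.7 and 11.5 with the shIBSP constructs and 12.8 with shNC, against medians of 7.1 to 9.5 on the 8 siRNA arrays. Above the highest siRNA array were 55 of 57 genes with shIBSP(1), 51 with shIBSP(2) and 56 with shNC. Over all genes shNC was above it in 18.0%, and this share was not counted for the shIBSP arrays. Genes were kept by their mean over all arrays, the sh arrays included, which favours genes high on the sh arrays. The shIBSP arrays therefore lay between shNC and the siRNA arrays for most of this group. The titles set the sh arrays apart from the siRNA arrays, and how the 2 sets differ in reagent or batch cannot be told apart.

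A search of promoters bore on the genes that were lower together. The motif GAAANNGAAA, the core of the interferon-stimulated response element, was looked for on both strands in RefSeq promoters of 300 bases (250 before to 50 after the start, GRCh38.p14). It occurred in 30 of the 45 interferon-stimulated genes with a promoter in the table (66.7%), against 275 of 9435 measured protein-coding genes (2.91%) and 996 of all 27305 promoters (3.65%). The motif belongs to the element named for these genes, so its share among them is no independent result. Among protein-coding genes at least 2-fold lower with both constructs it occurred in 15 of 48 (31.2%), and in 6 of 34 (17.6%) outside the interferon lists. Genes lower with both outside these lists still include known interferon-inducible ones (below). It occurred in 0 of the 7 that were 2-fold higher with both. Matches from 6 of the genes lower with both are shown on the strand of the gene with the motif in capitals, some of them as the reverse complement, to let the shared letters be seen. A match is a description of the sequence and no evidence of binding.
TLR3, chr4:186069132-186069161: cattttttttcaagctttacTTTCACTTTC
IFIT3, chr10:89327855-89327904: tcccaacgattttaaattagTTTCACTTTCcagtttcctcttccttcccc
IFIT5, chr10:89414544-89414573: tttagtttcgatttcttaagTTTCAGTTTC
GBP1, chr1:89065306-89065355: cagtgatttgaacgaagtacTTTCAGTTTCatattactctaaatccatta
CXCL10, chr4:76023689-76023738: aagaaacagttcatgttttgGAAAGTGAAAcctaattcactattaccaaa
SAMD9, chr7:93118086-93118135: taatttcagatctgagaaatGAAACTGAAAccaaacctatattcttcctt
TLR3, IFIT3 and IFIT5 lie on the plus strand of the genome, and GBP1, CXCL10 and SAMD9 on the minus strand. TLR3 and IFIT3 carry the same 10 letters, as do IFIT5 and GBP1. SAMD9, which encodes a restriction factor of poxviruses, had 14.47 and 14.45 with the shIBSP constructs against 15.49 with shNC.

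The interferon ligands, sensors and adaptors differed less from shNC as a group. Their medians were -0.18 with shIBSP(1) and -0.23 with shIBSP(2) over 15 measured genes, and the median for shIBSP(2) turned to 0.05 after quantile normalization. TLR3, the endosomal receptor of double-stranded RNA, was the only one 2-fold lower with both, at 7.62 and 6.98 against 9.03. ADAR, which edits double-stranded RNA and is itself interferon-inducible, had 11.73 and 11.23 against 12.53. MAVS, the mitochondrial adaptor of the RIG-I-like receptors, had 10.42 and 10.31 against 10.31 on the probe set with its Entrez ID, and 13.23 and 13.74 against 12.88 on a brighter one without it, so its probe sets disagreed. The receptor chain IFNAR1 had 11.91 and 11.35 against 11.79, with the 2 constructs on either side of shNC.

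Antigen presentation genes were below shNC to a smaller degree. Of 18 antigen presentation genes, 14 were below shNC with both constructs, with medians of -0.28 and -0.34, and none was 2-fold lower with both. PSMB9, an immunoproteasome subunit, had 8.72 and 8.66 against 9.70. HLA-B, a class I heavy chain, had 9.98 and 9.53 against 10.68, and HLA-F had 9.17 and 8.60 against 9.78. Other parts of the same machinery did not share this: the light chain B2M had 18.03 and 17.97 against 18.07, and the peptide transporter subunit TAP2 had 10.13 and 10.11 against 10.10. Of the 23 NF-kB targets 47.8% were below shNC with both constructs, near the 42.6% of all genes. Their medians were -0.13 and -0.44, and -0.02 and -0.21 after quantile normalization. At least 2-fold lower were 0 with shIBSP(1) and 4 with shIBSP(2), where 1.6% and 4.87% of all genes were.

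IL6, an inflammatory cytokine, had 13.73 with shIBSP(1) and 12.72 with shIBSP(2) against 14.00 with shNC. PTGS2, the inducible cyclooxygenase, had 9.33 and 8.29 against 9.32. Both genes were near shNC with shIBSP(1) and at least 2-fold lower with shIBSP(2). The neutrophil chemokines CXCL5, with 9.20 and 8.49 against 9.73, and CXCL3, with 7.06 and 6.41 against 7.74, were lower with both and more so with shIBSP(2). CXCL8, of the same family, was lower by a like amount with each, at 14.64 and 14.55 against 15.26. On the sh arrays as on the siRNA arrays, these 5 genes were read from 1 array per condition, and limma gave an adjusted p of 1 for each.

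**Figure D3:**
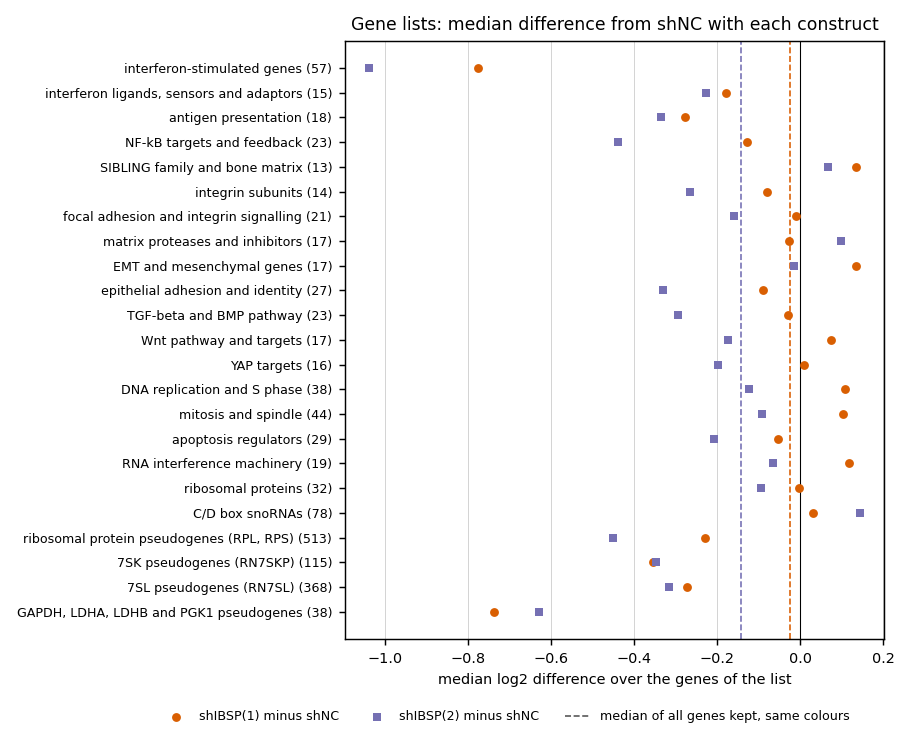
Median log2 difference from shNC of selected gene lists with shIBSP(1) and with shIBSP(2). A reference line for each construct gives the median of all genes kept. Of the 44 lists, not all drawn, the interferon-stimulated genes are lowest at -0.78 and -1.04. With both constructs 40 of the 44 lie within 0.25 of the medians of all genes. The GAPDH, LDHA, LDHB and PGK1 pseudogenes, grouped after the values were seen and outside the 44, lie at -0.74 and -0.63.

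Of the 44 gene lists compared, 40 had medians within 0.25 of those of all genes with both constructs, and 32 had no member 2-fold different with both. The exceptions were the interferon-stimulated genes, lower with both constructs, and 3 lists past 0.25 with 1 construct only. These were antigen presentation, lower with shIBSP(1), NF-kB targets, lower with shIBSP(2), and the C/D box snoRNAs, higher with shIBSP(2). DNA replication genes had medians of 0.11 and -0.12 over 38 genes, and mitosis genes 0.10 and -0.09 over 44. Neither list had a member 2-fold different with both constructs.

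The groups closest to the role of IBSP showed little in common between the constructs. Of 26 SIBLING and bone matrix genes on the arrays, 13 were bright enough to be kept. IBSP, SPP1, DMP1 and MEPE were not among them. These 13 had medians of 0.14 and 0.07, with none 2-fold different with either construct. The 14 integrin subunits had medians of -0.08 and -0.27. ITGAV, the alpha chain of the integrin that binds RGD ligands such as bone sialoprotein, had 7.55 and 7.29 against 7.98. ITGA5, of the fibronectin receptor, had 8.82 and 8.28 against 9.28, and ITGB1, the common beta chain, 17.84 and 18.00 against 17.90. ITGAV and ITGA5 were thus lower on both arrays by less than 2-fold, and ITGB1 lay on either side of shNC.

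Among 21 focal adhesion genes only PTK2, the focal adhesion kinase, was 2-fold lower with both, at 10.40 and 10.46 against 11.58. Its siRNA arrays ranged from 8.82 to 11.89, so all 3 values lay inside that range. Of 17 matrix proteases and inhibitors none was 2-fold different with both. MMP1, the interstitial collagenase, was lower than shNC with shIBSP(1) and higher with shIBSP(2), at 6.14 and 7.24 against 6.50. Of 19 genes of the RNA interference machinery, MOV10, an RNA helicase bound to Argonaute, was 2-fold lower with both at 5.92 and 6.05 against 7.35.

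The 173 genes lower with both constructs were mostly outside the interferon lists. They comprised 18 genes of the interferon, sensor and antigen presentation lists, 77 pseudogenes or small-RNA copies, 41 other protein-coding genes and 37 of other kinds. Several of the 41 are known to be interferon-inducible and are named here after their values were seen. TNFSF10, the death ligand TRAIL, had 7.74 and 7.42 against 9.23. IFI16, a nuclear DNA sensor, had 11.33 and 10.40 against 12.40. SHFL, which blocks ribosomal frameshifting of viruses, had 8.61 and 8.51 against 9.64. NMI lay just inside the 2-fold limit with shIBSP(1), at 10.76 and 10.52 against 11.76. All 4 were above the range of the siRNA arrays in shNC and in both shIBSP arrays.

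Other protein-coding genes of this group are named without regard to interferon, and any tie of theirs to it was not tested. CEACAM5, the carcinoembryonic antigen, had 7.68 with shIBSP(1) and 7.56 with shIBSP(2), against 9.40 with shNC, and a limma estimate of -1.78 (SE 0.34, unadjusted p = 0.00039, adjusted p = 1). Its siRNA arrays ranged from 6.45 to 7.93, so the shIBSP values lay within that range and shNC above it. MGAT4A, an N-glycan branching enzyme, had 6.23 and 6.30 against 7.75. SAMD4A, an RNA-binding repressor of translation, had 9.88 and 9.58 against 11.25. For these 3 genes the shIBSP arrays lay within 0.31 of each other and at least 1.36 below shNC.

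GABARAPL1, an ATG8-family protein of autophagosomes, had 8.82 and 8.14 against 10.18. SUCO, an endoplasmic reticulum protein of bone formation in mice, had 9.89 and 9.35 against 11.23. LGALS8, a galectin that marks damaged vesicles, had 9.37 and 9.27 against 10.72. NCL, the nucleolar protein nucleolin, was the brightest at 15.35 and 15.14 against 16.37. MT1M, a metallothionein, had 10.19 and 9.96 against 11.34, with siRNA arrays up to 10.28. For MT1M, too, shNC lay above all siRNA arrays and both shIBSP arrays within their range.

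**Figure D4:**
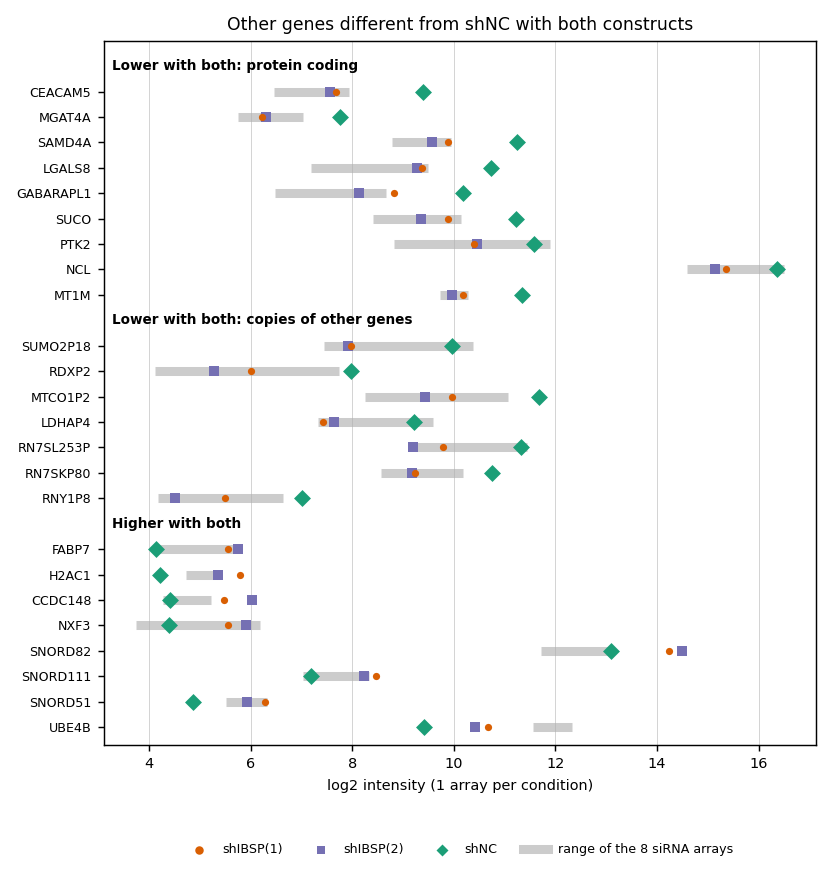
Log2 intensity of genes outside the interferon lists that were at least 2-fold lower or higher than shNC with both constructs, with 1 symbol per sh array and the range of the 8 siRNA arrays as a line. In CEACAM5, 7.68 and 7.56 on the shIBSP arrays lie inside the siRNA range and 9.40 on the shNC array above it.

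Copies of small and abundant RNAs made up a large share of the genes lower with both. Annotated pseudogenes were 2-fold lower with both in 19 of 918 cases (2.07%), genes with no Entrez ID in the platform table in 90 of 3374 (2.67%) and protein-coding genes in 59 of 11318 (0.521%). The groups of copies that follow were formed after these values were seen. The 7SK pseudogenes had medians of -0.35 and -0.35 (10 of 115 lower with both), the 7SL pseudogenes -0.27 and -0.32 (12 of 368) and the ribosomal protein pseudogenes -0.23 and -0.45 (18 of 513). The 38 pseudogenes of glyceraldehyde phosphate and lactate dehydrogenase and phosphoglycerate kinase had -0.74 and -0.63, with 9 lower with both. After median centring the medians with shIBSP(2) were closer to 0, at -0.15 for the 7SK and -0.11 for the 7SL pseudogenes. The median levels of these 2 groups with shNC, 6.60 and 6.65, lay below those on the array labelled siHOXB13 48 h, 6.69 and 6.80, which were the highest of the siRNA arrays, against 6.13 and 6.16 on the array labelled siNC 48 h. The 5S pseudogenes stood at 0.01 and 0.13, with 0 of 157 lower.

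Single copies were among the widest differences shared by both constructs. SUMO2P18, a SUMO2 pseudogene, had 7.98 and 7.91 against 9.96, MTCO1P2, a nuclear copy of the mitochondrial COX1 gene, 9.97 and 9.43 against 11.69, and LDHAP4 7.42 and 7.63 against 9.21. RN7SL253P had 9.78 and 9.19 against 11.32, and RN7SKP80 9.23 and 9.17 against 10.75. Pseudogene probe sets can take up signal from their parent genes, and these readings are uncertain as to which copy was measured. The parent GAPDH stood at the top of the scale on all 3 arrays, at 19.93 and 19.89 against 19.93.

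Of the 22 genes higher with both constructs, 11 had a level under 6 on both shIBSP arrays, against 24.6% of all genes. FABP7, a brain-type fatty acid binding protein, had 5.55 with shIBSP(1) and 5.75 with shIBSP(2), against 4.14 with shNC. CCDC148 had 5.47 and 6.02 against 4.40, and the histone gene H2AC1 5.79 and 5.35 against 4.22. NXF3, a relative of the mRNA export factor NXF1, had 5.55 and 5.90 against 4.38. In these 4 genes shNC stood within about 1 log2 unit of the background probe sets. The widest differences belonged to symbols whose other probe set disagreed. SPATA5 had 5.92 and 5.24 against 3.61, whereas the probe set under the current symbol of the same gene, AFG2A, had 8.03 and 7.97 against 7.96. FAM155A had 5.45 and 5.85 against 3.83, whereas NALF1, its current symbol, had 6.96 and 6.56 against 6.54.

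Brighter genes of this group included small nucleolar RNAs that guide methylation of ribosomal RNA. SNORD82, encoded in an intron of NCL, had 14.23 and 14.49 against 13.10, and its highest siRNA array had 13.07. SNORD111 had 8.47 and 8.23 against 7.19, and SNORD51 6.27 and 5.92 against 4.87. These 3 were the members of 78 C/D box snoRNAs that were 2-fold higher with both, and the list medians were 0.03 and 0.14. NCL, the host of SNORD82, was lower with both constructs (above), so host and intron-encoded RNA differed from shNC in opposite directions.

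UBE4B, a ubiquitin chain elongation factor, had 10.66 and 10.41 against 9.40, and all 3 lay below the siRNA range of 11.56 to 12.34. It was the only protein-coding gene with an Entrez ID among the 22 that was above 6 on all 3 arrays. MMP16 lay just outside the 2-fold limit at 6.42 and 6.46 against 5.42.

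The place of shNC beside the siRNA arrays was recorded for both groups. Among the 173 genes lower with both, shNC was above the range of the 8 siRNA arrays in 118 (68.2%), against 18.0% of all genes, and both shIBSP arrays were within it in 109 (63.0%), against 67.0% of all genes. Among the 22 higher with both, shNC was below the range in 12 (54.5%), against 7.38% of all genes. Both groups were chosen by shNC lying above or below both shIBSP arrays. That choice itself favours a shNC value outside the siRNA range, so the shares of shNC are no independent result. Since 1 shNC array underlies both differences, a change by the shIBSP constructs and a deviation of that array cannot be told apart.

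Genes that were at least 2-fold different with 1 construct, under 0.5 with the other, and 2-fold apart between them were counted separately for each construct, with no test. For shIBSP(1) there were 14 higher (0.0833%) and 9 lower (0.0535%), and for shIBSP(2) 39 higher (0.232%) and 118 lower (0.702%). For shIBSP(1), ACO1, the cytosolic aconitase that also binds iron-responsive elements, had 8.43 with shIBSP(1) and 7.26 with shIBSP(2), against 7.26 with shNC. All 3 were below the siRNA range of 9.35 to 10.23. ANKRD6, an ankyrin repeat protein of Wnt signalling, had 6.45 and 5.05 against 5.23, and IRF2BP1, a corepressor, 8.11 and 6.95 against 6.76. Lower with shIBSP(1) was SFR1, a recombination cofactor, with 6.44 and 7.65 against 7.64.

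Among the 118 genes counted as lower with shIBSP(2) were BRCA1, NUP133 and INTS6. BRCA1, of homologous recombination, had 7.25 with shIBSP(1) and 5.68 with shIBSP(2), against 7.40 with shNC, and its siRNA arrays ranged from 6.81 to 7.99. NUP133, a nuclear pore scaffold protein, had 9.43 and 7.74 against 9.59. INTS6, an Integrator subunit, had 7.91 and 6.56 against 8.38. In BRCA1 the shIBSP(2) array lay below all others, and in NUP133 at 7.74 just above the lowest siRNA array at 7.71. Higher with shIBSP(2) were MIR548T, with 5.08 and 6.88 against 5.28, and the H/ACA snoRNA SNORA36C, with 6.32 and 7.68 against 5.91.

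The direct comparison needed no control array. In shIBSP(2), 123 genes (0.732%) were at least 2-fold higher than in shIBSP(1) and 311 (1.85%) at least 2-fold lower, and the median gene differed by -0.11. This split turned with the scaling: higher genes were 28.3% of those past 2-fold as deposited, 37.8% after quantile normalization (144 higher, 237 lower) and 62.8% after median centring (247 higher, 146 lower). Of the 123 higher genes 93 (75.6%) were under 7 on the brighter of both arrays, against 124 of the 311 lower genes (39.9%) and 42.0% of all genes. With 1 array on each side, these differences have no replicate check.

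The largest direct difference below 0 was that of a microRNA gene. MIR548AN had 4.10 with shIBSP(2) and 6.63 with shIBSP(1), a difference of -2.54. APAF1, the core of the apoptosome, had 6.34 with shIBSP(2) and 8.11 with shIBSP(1). E2F3, an activator of S phase genes, had 6.62 with shIBSP(2) and 8.31 with shIBSP(1), and shNC was higher than either at 9.06. METTL18, a histidine methyltransferase, had 4.12 with shIBSP(2) and 5.89 with shIBSP(1), and ARL15, a small GTPase, 4.42 with shIBSP(2) and 6.21 with shIBSP(1). The lower value of MIR548AN, METTL18 and ARL15 lay under 5, where readings are close to background.

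Copies of U6 RNA and microRNA genes were among the largest direct differences above 0. RNU6-1152P had 5.82 with shIBSP(2) and 3.46 with shIBSP(1), a difference of 2.36, and RNU6-1084P had 10.53 with shIBSP(2) and 8.70 with shIBSP(1). MIR5580 had 7.41 with shIBSP(2) and 5.64 with shIBSP(1). The B cell survival factor TNFSF13B was also among the widest above 0, and the integrin alpha chain ITGAM among the widest below 0, each through a probe set without an Entrez ID. On the probe set with the ID, TNFSF13B differed from shNC by -0.20 with shIBSP(2) and by 0.21 with shIBSP(1), and ITGAM by -0.09 with shIBSP(2) and by -0.07 with shIBSP(1). RNU6-1084P was the only one of the genes in this paragraph above 8 on both arrays.

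**Figure D5:**
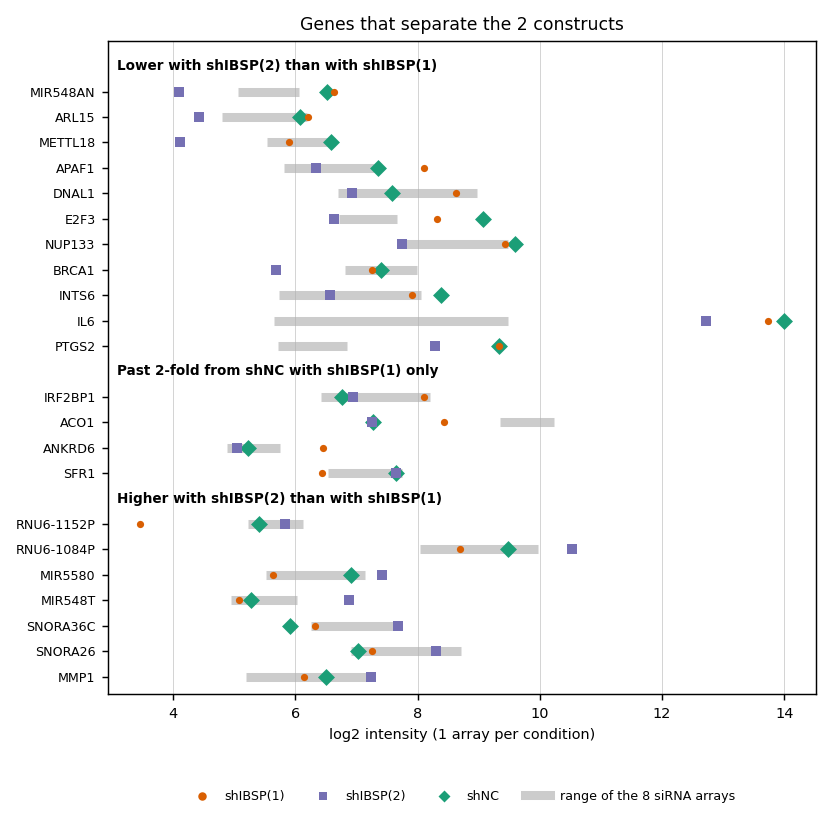
Log2 intensity of selected genes at least 2-fold apart between shIBSP(2) and shIBSP(1), with 1 symbol per sh array and the range of the 8 siRNA arrays as a line. Some of them only just pass 2-fold, and 1 block shows genes specific to shIBSP(1). MIR548AN is lowest with shIBSP(2) at 4.10 against 6.63 with shIBSP(1), and RNU6-1152P is lowest with shIBSP(1) at 3.46 against 5.82 with shIBSP(2).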

How the data were processed

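RNA of PC3 cells was hybridized to 11 human Clariom D arrays (1 for each condition). The authors' arrays were summarized, per the labels, in Affymetrix Expression Console, which gave the linear intensities deposited, 1 for each probe set. Its version, the summary method and the normalization are not stated. The design had assumed log2 values, so the logarithm was taken first, with no further scaling. Of 138745 probe sets, 31 were controls, 36176 had 1 gene symbol, 1119 several and 101450 none in the platform annotation, and only those with 1 symbol were named. Of a gene's probe sets the brightest was used, and 16808 of 33616 genes, those with the highest means, were kept. Sequences are from RefSeq tables. The number of arrays limits the precision.

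Samples were grouped by title. Differences were taken per array, and limma 3.58.1 in R 4.3.3 (lmFit, eBayes, two-sided, Benjamini-Hochberg) was fitted to all arrays with group and time. Its spread includes the siNC and siHOXB13 arrays of 48 h, whose HOXB13 levels go against their labels. Both steps were run on simulated data with independent noise and no shift between arrays, which does not measure their power on these arrays. The rest used Python 3.11.15, numpy 2.4.6, pandas 2.3.3 and matplotlib 3.10.9.

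Members and gene lists were chosen with earlier results of these data known. Named were the IBSP family, the 15 largest differences each way shared by both constructs, 8 each way particular to each, 12 each way between them and up to 5 members per list, while clones and predicted names were only counted. Genes beyond this rule were named for their known role or as neighbours of the 2-fold limit, after their values were seen. Alternatives were other filters on dim genes, array scalings, ways to join probe sets, fold limits, sets of arrays, an intensity trend and the methods' t-test. Protein-coding genes only and probe sets with an Entrez ID only were added after the data were seen.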

Additional observations from a re-analysis of the deposited data

Results flagged for a closer look

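Genes that stood at least 0.5 above shNC with one shIBSP array and at least 0.5 below it with the other numbered 45 of 16808 (0.268%), and the 7 of them named by the rule for the text are given here. The difference between the constructs was not tested for any of them, since each has 1 array. ITGAM was 0.80 above shNC with shIBSP(1) and at -1.05 with shIBSP(2), a direct difference of -1.85, on a probe set without an Entrez ID, and its other probe set stood at -0.07 and -0.09. LINC00702 stood at 1.09 and -0.74 (direct -1.83), APAF1 at 0.75 and -1.02 (direct -1.77), and DNAL1, a dynein light chain, at 1.05 and -0.66 (direct -1.71). The other way round, NPM1P31 stood at -1.28 with shIBSP(1) and 0.66 with shIBSP(2) (direct 1.94), RNU6-1084P at -0.78 and 1.05 (direct 1.83), and MIR5580 at -1.27 and 0.51 (direct 1.77).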

How the results depend on the processing

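In limma, 0 genes passed in either direction under every alternative tried. The methods' t-test, run on the same values, gave 358 higher and 559 lower genes at their threshold, an unadjusted p under 0.05, and 4 higher and 4 lower after Benjamini-Hochberg adjustment. That test has 1 degree of freedom, and 8 genes have identical values on both shIBSP arrays. Leaving out shIBSP(1) or shIBSP(2) gave 0 to 0 genes. Unadjusted, 94 higher and 367 lower had p under 0.05 without shIBSP(1), and 38 and 97 without shIBSP(2). Smallest adjusted p-values over the limma alternatives ran from 0.738 (3 sh arrays only) to 1.

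Counts of genes past 2-fold moved with the choice of genes. They are given as higher and lower with both constructs, specific to shIBSP(1) and to shIBSP(2), and higher and lower with shIBSP(2) than with shIBSP(1). Specific means past the limit with 1 construct, under 0.5 with the other and past the limit between them. As reported they were 22, 173, 23, 157, 123 and 311. Without the filter on dim genes, 4 counts moved by more than 1.5 times. They were 42 higher with both, 60 and 252 specific to 1 construct, and 357 higher with shIBSP(2). The 8404 brightest genes gave 5, 103, 4, 51, 10 and 125. All probe sets gave 411, 1060, 704, 1832, 3281 and 2395. Quantile normalization gave 85 lower with both. Median centring gave 42 and 106 for both constructs and 247 and 146 between them. A 1.5-fold limit gave 221, 899, 342, 1193, 718 and 1880, and a 4-fold limit 0 and 1 for both and 1 and 1 between them. Protein-coding genes alone, added after the data were seen, gave 7, 59, 9, 67, 34 and 175, and probe sets with an Entrez ID, also added, 7, 73, 9, 85, 36 and 203. Fewer genes enter in the last pair. Beyond that the cause was not tested. The median of the interferon-stimulated genes, over the mean of both constructs, was -0.89 and stayed on the same side under each alternative. No named gene turned its sign under an alternative while past 2-fold.

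No paired analysis was possible because the labels number only the shIBSP constructs and shNC has 1 array. With 1 array per condition, no difference between single arrays has a replicate check, and dim genes near background are measured poorly.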
